A study of Homo sapiens with 18 samples.

Results

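SELENOW encodes selenoprotein W, a small cytosolic protein with a thioredoxin-like fold and selenocysteine in its redox motif. The gene was followed as 1 row, ENSG00000178980, of the 58676 Ensembl IDs in the deposited count table, over all 6 groups of RNA immunoprecipitation sequencing (RIP-seq) libraries. RIP-seq sequences the RNA that comes down with a tagged protein beside that of the starting lysate, the input. The gene was chosen from the input libraries, where its level with selenite stood above that without selenite in lysates with Flag-SBP2. That contrast, and every value that uses a Flag-SBP2 input with or without selenite, is therefore given below as a description, with no test. Tests of SELENOW are given where the groups compared hold none of those inputs: between RIP groups, and in the Flag vector lysates.

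Cells labelled HEK 293T, a human embryonic kidney line, received a Flag-SBP2 plasmid with 100 nM sodium selenite, Flag-SBP2 alone, or the Flag vector alone. Selenite was added 4 h after transfection and lysates were taken at 48 h. Each treatment had 3 biological replicates, per the series design, and each replicate gave an input and an anti-Flag RIP library, 18 in all. The growth protocol names the parent line, without the T. All groups were transiently transfected and overexpressed their plasmid, and no group held selenite without Flag-SBP2, so an effect of selenite on its own cannot be told apart from one that needs the extra SBP2. The medium contained fetal bovine serum, which itself carries selenium. Defining markers of the cell line and the transfected gene were not looked up, since the files give Ensembl IDs without symbols and 0 of 59792 genes in the reference table carried an Ensembl ID.

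In selenoprotein mRNAs a UGA codon is read as selenocysteine instead of stop. This recoding needs a stem-loop in the untranslated region after the coding sequence, the SECIS element, and SBP2, the protein that binds it and brings in the elongation factor with selenocysteine tRNA. When selenium is scarce the UGA can be read as a premature stop, and some selenoprotein mRNAs are then degraded by nonsense-mediated decay. In selenium-deficient rodents Selenow is known as a selenoprotein gene whose mRNA and protein respond strongly to the supply, and its protein is abundant in muscle and brain.

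SELENOW lies on chromosome 19 at 47778703 to 47784682 of GRCh38 and spans 5980 bases, in the RefSeq annotation of GRCh38.p14. RefSeq placed 0 other genes across it. The nearest were the lncRNA gene NOP53-AS1, 9862 bases before it, and the ribosomal pseudogene RPL23AP80, 9783 bases after it. A pseudogene of it, SELENOWP1, lies on chromosome 1 at 31094589 to 31095638, and how reads with several matches were counted is not given in the sources used here. Reads could therefore have been shared between SELENOW and its pseudogene.

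The 250 bases before the RefSeq start are shown as a description of the locus. Whether these bases bear on the selenite difference was not tested. They are on the plus strand of GRCh38.p14, chr19:47778453-47778702, with motif matches in capitals.

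SELENOW promoter: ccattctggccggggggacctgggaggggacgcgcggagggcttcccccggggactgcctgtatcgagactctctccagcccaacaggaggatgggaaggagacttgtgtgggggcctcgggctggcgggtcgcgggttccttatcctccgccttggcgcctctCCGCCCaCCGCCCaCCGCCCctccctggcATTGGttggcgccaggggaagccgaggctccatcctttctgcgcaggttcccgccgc

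Both strands were searched for 4 motifs. The GC box, spelled GGGCGG, matched 3 times on the minus strand, beginning 86, 79 and 72 bases before the start, and 42.6% of 35116 RefSeq promoters of the same length held a match. The CCAAT box matched once on the minus strand, 57 bases before the start, and 32% of promoters held it. The antioxidant response element, spelled TGACNNNGC, and the metal response element core, spelled TGCNCNC, had 0 matches in these letters, against 10.9% and 49.1% of promoters with at least 1 match. The matches did not overlap one another. GC content was 70.4%, against a median of 58% over all promoters. These matches describe the letters of the window and do not show that a factor bound there.

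Library totals ran from 15162472 to 29887524 counts. Of the 58676 IDs, 17678 passed the low-count filter over 18 libraries and 16616 over the 9 inputs, and SELENOW passed both, with at least 358 counts in every library. Counting error at 358 counts is 5.29% (CV), and it is 0.691% at 20933 counts, the fewest in a RIP library with selenite. The spread between replicates was 4.45% to 19.4% (CV) across the 6 groups, widest in the Flag-SBP2 inputs. Levels are in CPM, counts scaled to 1e+06 per library with TMM factors, a method that matches the bulk of IDs between libraries. A RIP level in CPM is a share of the RNA recovered and not an amount per cell.

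In the lysate, SELENOW had 2733, 2283 and 2833 counts in Flag-SBP2 inputs with selenite, against 1160, 906 and 1344 counts in Flag-SBP2 inputs without it. These correspond to 152, 136 and 153 CPM with selenite, and to 78.7, 53.9 and 62.0 CPM without. The groups did not overlap: the lowest library with selenite lay well above the highest without. The means were 147 ± 9.65 CPM with selenite and 64.9 ± 12.6 CPM without (SD, n = 3 each), a 2.26-fold difference (log2 1.18, SE 0.125). Between lysates of the same number the ratio was 1.93, 2.51 and 2.46. This is the contrast on which the gene was chosen, so no test is given and the lack of overlap is not read as support. In a bulk lysate, more SELENOW mRNA per cell and more cells that hold it cannot be told apart.

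Among 13205 IDs whose log2 CPM averaged at least 1, SELENOW had the highest input difference, and the next was ENSG00000213020 at log2 0.74. Of these IDs, 99.5% lay within 0.5 of 0 on the log2 scale. Over all 16616 IDs, 9 had a higher fitted value than SELENOW. The share that edgeR called higher with selenite was 0.00602%, with 0 lower and 251 at an unadjusted p under 0.05, and since the gene was chosen on this contrast nothing is read from that share for SELENOW. With the replicate number as a block, which pairs these inputs, 5 were called higher and 32 lower. DESeq2 called 3 higher and 0 lower, and limma voom 1 and 0.

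With Flag-SBP2 alone the lysate level lay close to that with the vector. SELENOW had 78.7, 53.9 and 62.0 CPM in Flag-SBP2 inputs, against 69.7, 59.2 and 62.4 CPM in Flag vector inputs, and the groups overlapped. The means were 64.9 ± 12.6 and 63.7 ± 5.39 CPM (SD, n = 3 each), a log2 difference of 0.03 with a 95% interval of -0.24 to 0.30. The interval spans 0.849 to 1.23-fold. In this comparison 0.361% of IDs were called higher. The Flag-SBP2 inputs also served in the contrast that chose the gene, where a low level in them would have favoured the choice, so no test is given. Flag-SBP2 inputs with selenite stood 2.31-fold above Flag vector inputs (log2 1.21, SE 0.125), a description for the same reason.

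**Figure D1:**
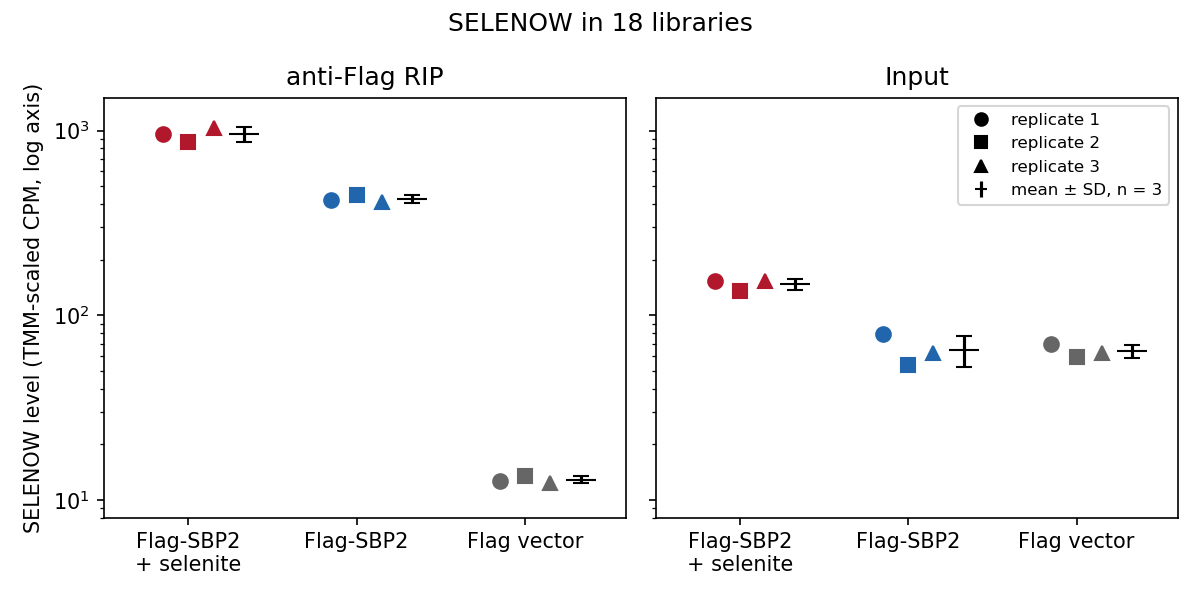
SELENOW level in TMM-scaled CPM (log axis) in each of the 18 libraries, RIP on the left and input on the right, by treatment; symbols mark the replicate number and black bars the mean ± SD of 3. In the RIP panel the 3 treatments do not overlap, from 867 CPM or more with selenite down to 13.4 CPM or less with the Flag vector, while in the inputs the Flag-SBP2 and Flag vector libraries overlap.

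The Flag vector precipitation gives the share of SELENOW in the RNA recovered without Flag-SBP2. SELENOW had 12.7, 13.4 and 12.3 CPM in Flag vector RIP, against 69.7, 59.2 and 62.4 CPM in the inputs of the same lysates. Every RIP library lay below every input. The fitted difference was log2 -2.31 (SE 0.115, 0.201-fold, edgeR adjusted p = 4.21e-15), so SELENOW took a smaller share of the counts from the beads than from the lysate. Falls of this kind were common, with 39.8% of IDs called lower in this comparison, though only 799 of 17678 had a lower fitted value than SELENOW. That fit did not use the shared lysate of each RIP and input. With the lysate as a block the difference was log2 -2.31 (SE 0.105, edgeR adjusted p = 2.05e-13).

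With Flag-SBP2 the direction turned. SELENOW had 422, 447 and 409 CPM in Flag-SBP2 RIP, against 78.7, 53.9 and 62.0 CPM in the inputs, with no overlap. The difference was log2 2.72 (SE 0.11, 6.58-fold), in a comparison where 30.3% of IDs were called higher and 26 had a larger fitted value than SELENOW. The RIP-to-input ratios of the single lysates were 5.36, 8.28 and 6.59 with Flag-SBP2 and 0.183, 0.229 and 0.199 with the Flag vector. All 3 lysates with Flag-SBP2 stood above 1 and all 3 with the vector stood below it. A low level in the Flag-SBP2 inputs, which would have favoured the choice of the gene, also raises these ratios, so they are descriptions.

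Enrichment over the vector, the RIP-to-input difference with Flag-SBP2 minus that with the vector, was log2 5.03 (SE 0.158, 32.7-fold), a description for the same reason. Here 21.7% of 17678 IDs were called higher, and 6 exceeded SELENOW. RIP against RIP, a contrast that holds no input, gave a similar size, although the inputs entered the scaling and the spread of the fit over 18 libraries. Both values share their RIP libraries and the input groups differed by log2 0.03, so the likeness is not an independent check. SELENOW had 426 ± 19.2 CPM in Flag-SBP2 RIP and 12.8 ± 0.571 CPM in Flag vector RIP (SD, n = 3 each), a log2 difference of 5.06 (SE 0.123, 33.3-fold, edgeR adjusted p = 1.25e-20). A fit of the 9 RIP libraries alone, added after the data were seen, gave 5.05 (SE 0.0888, edgeR adjusted p = 5.9e-23). Of all IDs 29.4% were called higher in that comparison and 9 lay above SELENOW. Lysates of the same number gave differences between 32.9 and 33.1-fold. The numbers were not taken as paired in this comparison, so that narrow range does not measure the spread between replicates.

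**Figure D2:**
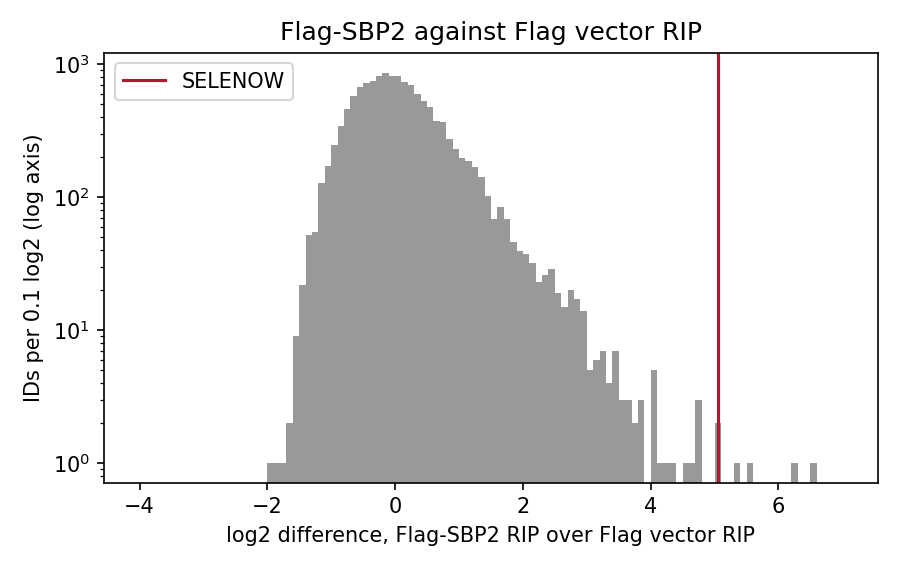
Number of IDs (log axis, bins of 0.1) by log2 difference between Flag-SBP2 RIP and Flag vector RIP, for 13205 IDs whose log2 CPM averaged at least 1. SELENOW, the vertical line at 5.06, stands at the far right end, with 5 of these IDs beyond it and a median of all IDs of -0.01.

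SELENOW also stood higher with selenite in the Flag-SBP2 precipitate, in libraries other than the inputs on which the gene was chosen. SELENOW had 22705, 23506 and 20933 counts in Flag-SBP2 RIP with selenite, against 10474, 11958 and 11547 counts in Flag-SBP2 RIP without it. After scaling these were 955, 867 and 1038 CPM with selenite and 422, 447 and 409 CPM without. Each library with selenite held more than any without. The means were 953 ± 85.1 and 426 ± 19.2 CPM (SD, n = 3 each), a 2.24-fold difference (log2 1.16, SE 0.102, 95% interval 0.95 to 1.37, edgeR adjusted p = 5.84e-07). Lysates of the same number differed 2.26, 1.94 and 2.54-fold, though the numbers were not taken as paired in this comparison. The exact two-sided permutation test over the 6 libraries gave p = 0.1, the smallest that 3 against 3 allow. RIP and input libraries came from the same lysates, so the RIP libraries repeat the measurement but not the treatment. A difference between these lysates that favoured the choice of the gene would also reach their RIP libraries. The edgeR p-value is therefore not independent of that choice.

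SELENOW was the 1 ID of 17678 (0.00566%) that edgeR called higher in this RIP comparison, with 0 called lower and 1063 at an unadjusted p under 0.05, while DESeq2 called 4 higher and 116 lower and limma voom 4 and 29. Over the main setting and 16 alternatives, SELENOW was called higher in 17 of 17, all from the lysates in which the gene was chosen. Over all 17678 IDs, 35 had a higher fitted value than SELENOW. Among the 13205 IDs above the same level limit it had the highest, and the next was ENSG00000262877 at log2 0.80 (edgeR adjusted p = 0.395). Of these IDs 99.5% lay within 0.5 of 0.

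Against the Flag vector, Flag-SBP2 RIP with selenite held 953 ± 85.1 CPM and Flag vector RIP 12.8 ± 0.571 CPM (SD, n = 3 each), a 74.4-fold difference (log2 6.22, SE 0.129, edgeR adjusted p = 6.09e-22). This comparison shares its vector libraries with that of Flag-SBP2 alone. In it 27.1% of IDs were called higher and 1 ID exceeded SELENOW, against 9 without selenite. The gene was chosen for a high level in the inputs of these lysates with selenite. That choice favours a high rank and a low p-value here.

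**Figure D3:**
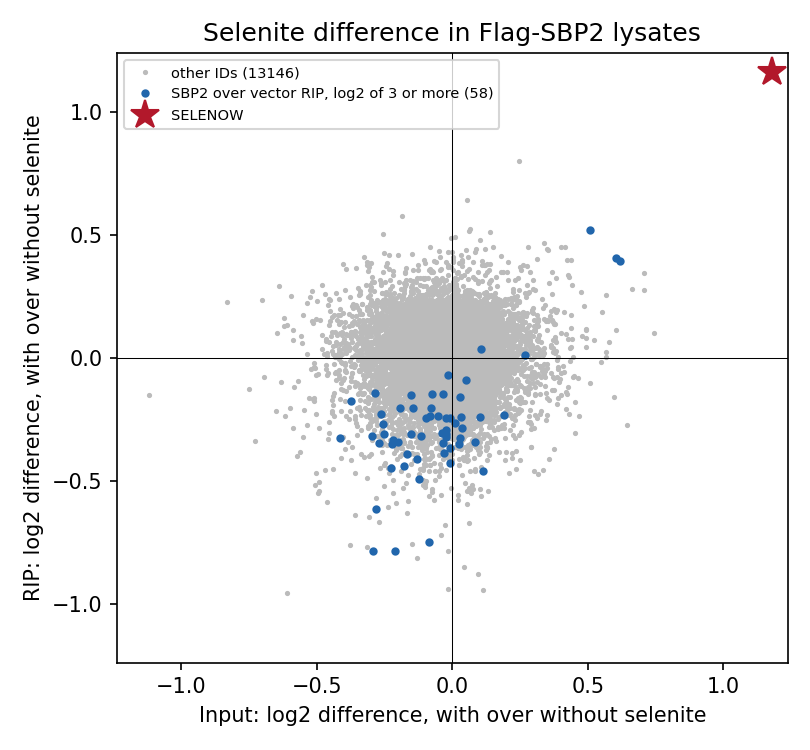
Log2 difference with over without selenite in Flag-SBP2 inputs (horizontal) and in Flag-SBP2 RIP (vertical) for 13205 IDs whose log2 CPM averaged at least 1; blue points are the 58 other IDs whose Flag-SBP2 RIP stood at log2 3 or more above Flag vector RIP. SELENOW (star) lies apart at the upper right, at 1.18 in input and 1.16 in RIP, on axes that hold all the points.

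The lysate and the precipitate moved by nearly the same factor, 2.26-fold in input and 2.24-fold in RIP. The RIP-to-input ratio was therefore close with and without selenite. It was 6.27, 6.39 and 6.79 in lysates with selenite, and 5.36, 8.28 and 6.59 in those without. The ratios with selenite lay inside the range of those without. The means were 6.48 ± 0.273 with selenite and 6.74 ± 1.46 without (SD, n = 3 each). The fitted difference in recovery was log2 -0.02 with a 95% interval of -0.32 to 0.28. That interval spans 0.802 to 1.21-fold, and no test is given because these inputs chose the gene. Flag-SBP2 RIP with selenite stood 6.49-fold above its input (SE 0.108 on the log2 scale), and enrichment over the vector with selenite was log2 5.01 (SE 0.157), as descriptions.

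**Figure D4:**
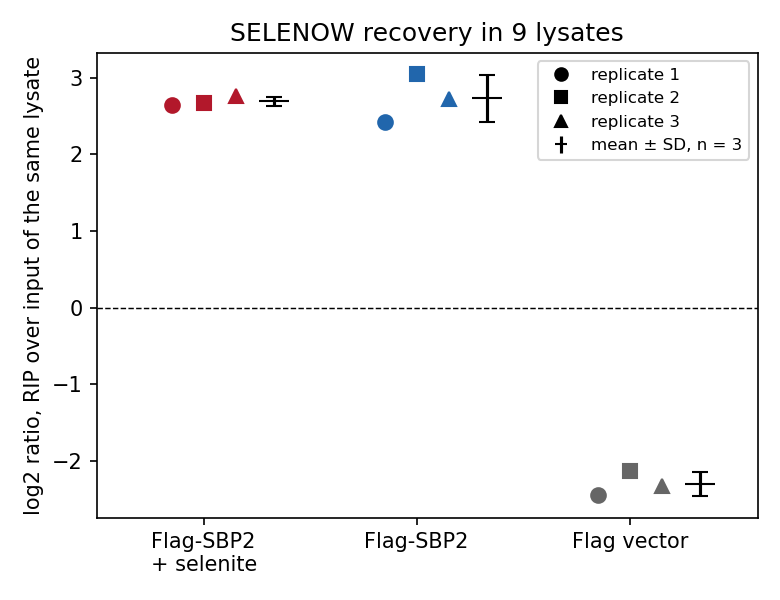
Log2 ratio of SELENOW in RIP over input of the same lysate, for 9 lysates by treatment, with replicate symbols and mean ± SD of 3; the dashed line marks equal levels. Ratios lie at 2.42 to 3.05 with Flag-SBP2, with and without selenite together, and at -2.45 to -2.13 with the Flag vector.

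The selenite difference of SELENOW can be set beside those of other RNAs with strong recovery. The 58 other IDs at log2 3 or more in Flag-SBP2 over Flag vector RIP had a median selenite difference of -0.30 in RIP, with 5 of 58 above 0. The highest of them reached 0.52, against 1.16 for SELENOW. SELENOW was the highest of all 13205 IDs at the level limit and the only ID that edgeR called. No group of other IDs could therefore lie above it or hold a call, whatever the limit. In the inputs the 58 IDs had a median of -0.06 and a highest value of 0.62. The median of all 17678 IDs in the RIP comparison was 0.01. The group was formed after its values were seen and the limit of 3 is arbitrary, so no test of the group is given. These IDs were picked for a high level in Flag-SBP2 RIP, and the same libraries are the reference of the selenite difference. Such a choice favours values below 0, and its share in the median was not tested. At limits of 1, 2 and 4 there were 1392, 290 and 18 other IDs, with medians of -0.18, -0.26 and -0.28.

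The IDs whose levels ran most like SELENOW over all 18 libraries were ENSG00000233276 (Pearson r = 0.986) and ENSG00000197582 (r = 0.983), among 13204 IDs compared on log2 CPM. The 18 libraries form 6 groups of 3, and 238 IDs had an r above 0.9. ENSG00000233276 had 2155 ± 135 CPM in Flag-SBP2 RIP with selenite, 1627 ± 76.8 CPM in Flag-SBP2 RIP and 61.1 ± 1.92 CPM in Flag vector RIP (SD, n = 3 each). Its selenite difference was log2 0.41 in RIP (SE 0.0835) and 0.60 in input (SE 0.0973). ENSG00000197582 gave 0.39 in RIP and 0.62 in input. Both IDs were picked for likeness to SELENOW over these same libraries, a choice that favours IDs that rise with selenite. Their selenite differences are therefore descriptions, and no test is given.

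Over the 9 inputs alone and over the 9 RIP libraries alone, ENSG00000211450 came first, with r = 0.923 and 0.996. An r above 0.9 was held by 4 of 13456 IDs over the inputs and by 2470 of 13034 over the RIP libraries. The level of ENSG00000211450 was 804 ± 78.7 CPM in Flag-SBP2 RIP with selenite, 561 ± 67.8 CPM without selenite and 27.9 ± 3.47 CPM with the Flag vector (SD, n = 3 each). Its selenite difference was log2 0.52 in RIP (SE 0.114) and 0.51 in input (SE 0.125), descriptions for the same reason. ENSG00000233276, ENSG00000197582 and ENSG00000211450 were called higher with selenite in RIP under 5 or 6 of 17 settings, the main one not among them. In input they were called higher under 2 to 4 of 16, again not the main one. Since these IDs were picked for likeness over the same libraries, nothing is read from these counts for them. The counts show only that the IDs called beside SELENOW changed with the setting. ENSG00000138623 came next over the inputs (r = 0.923) but did not stand higher in Flag-SBP2 RIP than in Flag vector RIP. It had 4.89 ± 0.434 and 5.63 ± 0.132 CPM there (SD, n = 3 each). Its selenite difference was log2 0.49 in input and 0.08 in RIP. At the other end, ENSG00000084754 (r = -0.924) and ENSG00000135414 (r = -0.922) ran most against SELENOW over the 18 libraries. ENSG00000084754 had 290.0 ± 16.1 CPM in Flag-SBP2 RIP with selenite, 277 ± 8.68 CPM without and 451 ± 4.89 CPM with the Flag vector (SD, n = 3 each).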

How the data were processed

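The authors deposited whole-number counts per Ensembl ID for 18 libraries. Trim Galore 0.6.6, STAR 2.7.6a, featureCounts 2.0.1 and the build GRCh38 (hg38) are named in the submitters' processing notes. The annotation, the strand setting and the handling of multimapping reads are not stated in the sources used here. Each sample was grouped by its title.

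Counts were tested with the two-sided quasi-likelihood test of edgeR 4.0.16 (R 4.3.3), with TMM scaling, filterByExpr (minimum count 10, minimum total 15), Benjamini-Hochberg adjustment over all IDs tested with calls made under 0.05. Comparisons with RIP libraries came from a group-means model of all 18, and those between inputs from the 9 inputs. Standard errors and 95% intervals were derived from the test statistic. Log2 CPM used a prior count of 2. Alternatives included DESeq2 1.42.0, limma 3.58.1 (voom), other scalings and filters, replicate blocks and left-out libraries.

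Tests had been planned for 3 further SELENOW comparisons, Flag-SBP2 RIP against its input, enrichment over the vector and Flag-SBP2 against vector inputs. They share the Flag-SBP2 inputs with the contrast that chose the gene, so their p-values are not given. The gene and the lists were chosen with earlier results of these data known. The rule for named IDs took SELENOW, the 2 highest and 2 lowest by Pearson correlation with SELENOW over each set of libraries, and members of fixed symbol lists. Those lists (selenoproteins, selenocysteine machinery, decay factors and targets, redox partners, cell markers) and the planned comparison of SELENOW with SELENOT, SELENOH, GPX1 and MSRB1 were not used here, since no symbol was paired with the IDs. ENSG00000213020 and ENSG00000262877 were named after their values were seen. Promoters are from RefSeq, matched by symbol (1 of 1).

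No library was a duplicate: within groups the chi-square per degree of freedom of any pair was 4.70 to 26.5. Same-numbered deviations from group means correlated at 0.11 to 0.19 between Flag-SBP2 inputs with and without selenite and at 0.13 to 0.31 between inputs with selenite and vector inputs, which were taken as paired. In the other comparisons at least 1 pair lay under 0.1. RIP and input of 1 number share a lysate by the protocol. That replicates were transfected separately is not stated beyond their being called biological, so p-values measure the spread between these samples.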

Additional observations from a re-analysis of the deposited data

Results flagged for a closer look

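SELENOW moved in opposite directions in the same contrast, RIP against input, with Flag-SBP2 and with the Flag vector. The difference between the treatments, the enrichment over the vector, was log2 5.03 (SE 0.158), with all 3 lysates of each treatment on opposite sides of 0. With selenite the difference was log2 5.01, again with all 3 lysates on opposite sides. No test of either difference is given, because the Flag-SBP2 inputs in both had chosen the gene.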

How the results depend on the processing

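The 12 SELENOW values were recomputed under 201 alternative settings in all. In 197 the value kept its direction and side of the threshold or moved by less than the replicate spread. For Flag-SBP2 RIP against its input, enrichment over the vector and Flag-SBP2 against vector inputs, this count used the withheld p-values. The count is therefore not read for those comparisons, and only their sizes are given. Flag-SBP2 RIP against its input ranged from log2 2.61 to 2.88. The selenite difference in RIP ranged from log2 1.09 to 1.22 (edgeR, DESeq2 or voom adjusted p at most 4.31e-05), and enrichment over the vector from 4.88 to 5.19. With selenite that enrichment was 4.88 with library size alone and 4.85 without a low-count filter, the cause not tested. The difference between Flag-SBP2 and vector inputs, for which no test is given, changed sign when libraries were left out. It ranged from -0.13 without Flag-SBP2 replicate 1 to 0.14 without Flag-SBP2 replicate 2, with -0.02 without vector replicate 2. The replicate block changed no SELENOW call among the comparisons for which a test is given. It gave 1.16 for the RIP selenite difference and 5.06 for Flag-SBP2 over vector RIP. For recovery, which has no test, it gave -0.03.

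Counts over all IDs depended on the setting. For selenite in RIP (1 higher, 0 lower) they were 4 and 116 (DESeq2), 4 and 29 (voom), 5 and 78 (unfiltered), 4 and 110 (only the groups compared), 4 and 72 (replicate block), where the numbers did not pair, and 5 and 99 within the 9 RIP libraries alone, a setting chosen after seeing the data. For selenite in input (1 and 0) they were 3 and 0 with DESeq2, 5 and 22 without a filter, 2 and 0 with only the groups compared, and 5 and 32 with the block. Each left-out library gave 1 and 0 in both. For Flag-SBP2 over vector inputs (60 and 86) they were 130 and 201 with DESeq2, 64 and 57 with upper-quartile factors, 370 and 311 without a filter, 1233 and 1501 with the replicate block, and 17 to 398 and 4 to 339 without single libraries. The planned comparison with 4 named selenoprotein genes was not run, since their IDs were not paired with symbols. In Flag vector RIP the counting error at the fewest counts (5.29%, CV) exceeded the replicate spread (4.45%).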
